A study of Arabidopsis thaliana with 6 samples.

Results

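The step from stage A to stage B in flower buds of the atcep1 mutant of Arabidopsis thaliana was read from 2 of the 6 libraries of the series. Buds of the Columbia background were classed by anther stage. The library of atcep1 stage B (anther stages 7 to 9) was set against the library of atcep1 stage A (anther stages 5 to 6), and the members are those 2 libraries, chosen by genotype and stage label alone. The same step in wild-type buds, stage B against stage A, was laid beside it, and the stage C libraries (anther stages 10 to 11) served only as levels. The labels call the mutant atcep1, after CEP1, which encodes a papain-like cysteine protease, and give no allele, and every plant was grown on soil under 14 h of light and 10 h of dark at 23 °C. Each genotype was sequenced once at each stage, so no value here has a replicate check and no p-value was computed. Whole buds were sampled, so sepals, petals and carpels contribute RNA beside the anther, and fewer cells of a type and less RNA per cell cannot be told apart.

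Between anther stages 5 and 9 the pollen mother cells are walled in callose, pass through meiosis and form tetrads, and the microspores are then released and begin to build the exine. The tapetum, the innermost sporophytic layer, feeds the locule, secretes callase and the precursors of sporopollenin, and later fills with the lipids and proteins of the pollen coat. It is removed by programmed cell death in later stages. CEP1 is known from this tissue as a protease of that death. Genes of mature pollen, such as pectin-modifying enzymes and pollen proton pumps, are known to be transcribed mainly after the microspores divide.

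The atcep1 stage B library held 4.16 M reads (M standing for mega) and the atcep1 stage A library 4.14 M. Reads were found on 22896 loci in stage B and 22620 in stage A, and 21416 loci were read in both. The unit is RPKM, the reads on a transcript model divided by its length in kilobases and by the M reads of the library. The value of the step is log2((RPKM + 1) in stage B / (RPKM + 1) in stage A), a scale that understates the change of low genes. A locus was called, and is written below as having risen or fallen, at values of 1 or more or of -1 or less, provided that 1 of the 2 libraries reached 5 RPKM. Loci with a mean RPKM of at least 2.5 over the pair, 14998 in all, are the measured loci against which shares are read. Read ratios were scaled to the library totals and are followed by an exact 95% binomial interval, which covers counting error only. The interval narrows with more reads, so an abundant locus leaves out 1 at a smaller step. Shares of intervals in lists and over all measured loci were not matched for depth.

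Before the levels, the promoters of 5 genes are shown because their groups share a short motif more often than promoters at large. The groups are the evening genes of the circadian clock, of which 3 rose, and the genes of DNA replication and mitosis, of which 0 were called. Each stretch is the 300 bases before the RefSeq gene start in TAIR10.1, read 5′ to 3′ on the strand of the gene. Capitals in the first 2 mark AATATCT, the core of the evening element, on either strand: CCR2 lies at chr2:9266558-9266857 (minus strand) and FKF1 at chr1:25508339-25508638 (plus strand). In MCM3 (chr5:18773707-18774006, minus strand) and MCM6 (chr5:18010668-18010967, minus strand) they mark TTCCCGC or TTGGCGC, cores of the E2F site, on either strand. In CYCB1;2 (chr5:1861704-1862003, minus strand) they mark AACGG, the core of the mitosis-specific activator, on either strand.
CCR2: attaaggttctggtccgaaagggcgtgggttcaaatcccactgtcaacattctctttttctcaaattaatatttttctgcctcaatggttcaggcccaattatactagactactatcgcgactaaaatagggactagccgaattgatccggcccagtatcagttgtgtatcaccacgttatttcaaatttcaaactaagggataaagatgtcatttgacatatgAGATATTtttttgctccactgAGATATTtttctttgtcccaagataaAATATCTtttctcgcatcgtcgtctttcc
FKF1: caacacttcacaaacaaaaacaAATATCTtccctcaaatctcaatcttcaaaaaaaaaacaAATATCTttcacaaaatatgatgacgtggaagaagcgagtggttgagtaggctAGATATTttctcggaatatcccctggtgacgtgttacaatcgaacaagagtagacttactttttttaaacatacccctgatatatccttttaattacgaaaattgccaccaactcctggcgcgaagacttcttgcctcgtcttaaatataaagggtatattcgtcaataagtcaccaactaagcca
MCM3: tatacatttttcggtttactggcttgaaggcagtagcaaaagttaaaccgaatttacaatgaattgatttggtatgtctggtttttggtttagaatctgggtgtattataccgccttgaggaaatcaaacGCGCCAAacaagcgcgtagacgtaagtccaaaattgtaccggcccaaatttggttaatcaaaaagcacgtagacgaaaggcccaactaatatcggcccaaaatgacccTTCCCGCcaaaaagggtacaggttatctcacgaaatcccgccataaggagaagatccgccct
MCM6: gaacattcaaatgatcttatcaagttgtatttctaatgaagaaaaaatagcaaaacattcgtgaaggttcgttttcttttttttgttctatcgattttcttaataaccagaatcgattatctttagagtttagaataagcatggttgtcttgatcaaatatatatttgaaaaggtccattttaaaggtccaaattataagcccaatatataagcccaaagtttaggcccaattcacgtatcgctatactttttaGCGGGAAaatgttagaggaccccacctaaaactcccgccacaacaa
CYCB1;2: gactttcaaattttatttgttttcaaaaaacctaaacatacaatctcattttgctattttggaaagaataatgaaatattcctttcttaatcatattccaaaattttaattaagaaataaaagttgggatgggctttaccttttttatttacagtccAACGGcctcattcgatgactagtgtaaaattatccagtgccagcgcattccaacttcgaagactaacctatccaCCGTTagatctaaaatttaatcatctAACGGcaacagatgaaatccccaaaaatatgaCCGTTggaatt
The evening element core stood in 6 of the 8 day and evening clock genes (75%), against 11.8% of the 27443 promoters of that length in the annotation. Its share was also 75% over the whole clock list (9 of 12), which holds the morning genes, of which 0 rose. In the cold and wounding list it stood in 6 of 11 (54.55%). The motif was thus not particular to the evening genes. TTCCCGC stood in 5 of the 8 replication genes (62.5%), against 1.34% of all promoters, and TTGGCGC in 3 (37.5%), against 0.856%. AACGG stood in 8 of the 9 mitotic cyclin genes (88.9%), against 23.4% of all promoters. Among promoters of the loci that rose, the evening element core stood in 10.5%, and among those of the loci that fell in 6.48%. A match describes letters only and is no evidence that a factor was bound.

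More loci rose than fell. At stage B 646 loci (4.31% of the measured loci) were called higher than at stage A and 123 (0.82%) lower, and 82.9% of the measured loci lay within 0.5 of 0 on the log2 scale. The median over the measured loci was -0.05. Of the loci that rose, 305 were at least 4-fold and 95 at least 8-fold higher. Of those that fell, 5 were at least 4-fold and 0 at least 8-fold lower. The 646 loci that rose took 3.84% of the reads at stage B and 0.735% at stage A, so the larger part of both libraries lay in loci that were not called. By the interval alone, 1764 loci (11.8%) lay above a ratio of 1 and 2114 (14.1%) below it. Calls were thus more frequent in the higher direction and intervals in the lower direction. The intervals were scaled to library totals alone. TMM factors, another scaling of the libraries, were 1.029 at stage A and 0.992 at stage B. The interval counts were not recomputed with them, so how far the excess below 1 depends on the scaling was not tested.

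**Figure D1:**
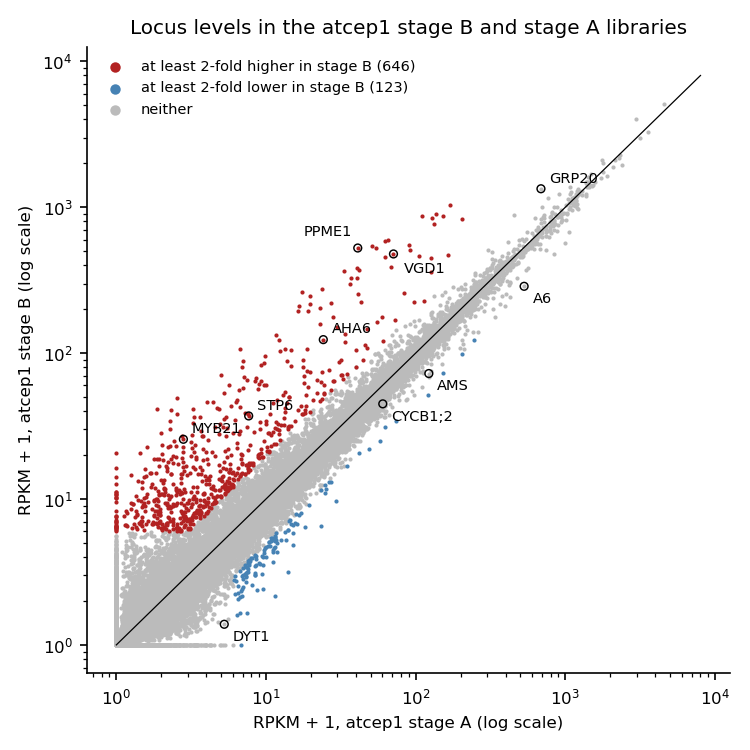
RPKM + 1 of each locus at atcep1 stage B (vertical) and atcep1 stage A (horizontal), both on log scales, with 1 library on each axis; red loci rose (646), blue loci fell (123), grey loci were not called and the line marks equal levels. VGD1, with 477 RPKM at stage B and 70.1 at stage A, lies well above the line, and the blue loci lie nearer to it than many of the red.

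The cell type markers describe what RNA the libraries held. Genes of mature pollen are known mainly from after the microspores divide, yet pollen markers were read at both stages. How far the anthers of the buds matched the stage labels was not tested. The 11 pollen markers summed to 1245 RPKM at stage B and 171 at stage A, with 10 read in each library and ACT4 at 0 in both. The 6 tapetum markers, all read, summed to 814 and 1189 RPKM at stage B and stage A. The 5 meiocyte markers summed to 30.9 RPKM at stage B, where REC8 had no read, and 37.7 at stage A. The sum of pollen markers was thus higher and that of tapetum markers lower at stage B. Some members departed from their sums, as given below. The tapetum marker ATA20 was higher at stage B, and the pollen marker HAP2 had an interval that held 1. The 5 markers of floral identity (870 and 751 RPKM) and the 5 of carpel and ovule (126 and 135) differed less between stages B and A. So did the 5 of green sepal tissue (6193 and 6749). The part of tissue composition in the results below was not tested. Chloroplast loci took 0.757% of the reads at stage B and 0.851% at stage A, and mitochondrial loci 0.165% and 0.144%.

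CEP1 itself was near the floor of 3 reads, with 5 reads at stage B and 4 at stage A (0.780 and 0.628 RPKM). The read ratio was 1.24, with an interval of 0.267 to 6.26. In wild type it had 1 read at stage B and 0 at stage A, and at stage C each genotype had 6. The atcep1 libraries thus held no fewer reads of the gene than wild type at any stage, and these few reads could not check the genotype label.

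Pollen genes had the highest median of the 24 gene lists. Of 30 listed genes 23 were measured, 18 rose and 0 fell, where 4.31% of all measured loci rose, and the median of the measured members was 1.79 against -0.05 over all measured loci. The reads of the 30 genes together were 4.91 times as many at stage B as at stage A (interval 4.73 to 5.09). All 4 pectin-modifying enzymes of this list rose. VGD1, a pollen pectin methylesterase that is needed for pollen tube growth, had 4400 reads at stage B and 642 at stage A, a ratio of 6.81 (6.27 to 7.41). Its neighbour on chromosome 2, VGDH1, had 915 reads at stage B and 49 at stage A, a ratio of 18.6 (13.9 to 25.3). The pair lies on the reverse strand at 19327896 to 19330197 (VGD1) and 19324233 to 19326397 (VGDH1, TAIR10), and reads shared by the pair would be missing from counts of unique reads. PPME1, another pollen pectin methylesterase, had 2953 reads at stage B and 224 at stage A (13.1, 11.4 to 15.1), and the polygalacturonase gene PGA4 had 3812 and 614 (6.17, 5.66 to 6.73). These 4 enzymes summed to 1660 RPKM at stage B and 205 at stage A.

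The 3 pollen plasma membrane proton pumps also rose. AHA6 had 1702 reads at stage B and 319 at stage A (ratio 5.30, 4.70 to 5.99), AHA9 had 512 and 84 (6.06, 4.80 to 7.72), and AHA8 had 387 and 152 (2.53, 2.09 to 3.07). The interval of AHA8 lay below those of AHA6 and AHA9, which overlapped. Both water channels of the pollen vacuole rose, TIP1;3 with 95 reads against 13 (7.26, 4.05 to 14.1) and TIP5;1 with 23 against 3 (7.62, 2.30 to 39.6). Of the actin cytoskeleton genes, 5 of 7 measured rose. They were the profilin genes PRF5 (136 reads at stage B, 16 at stage A) and PRF4 (396, 95), the actin depolymerising factor genes ADF7 (60, 15) and ADF10 (104, 28), and the actin gene ACT12 (249, 75). The other measured reproductive actins lay lower, at ratios of 1.28 (1.15 to 1.42) for ACT3 and 1.17 (1.01 to 1.34) for ACT11. The MADS-box factors of late pollen divided: AGL104 (52 reads at stage B, 17 at stage A), AGL30 (98, 45) and AGL94 (43, 18) rose, AGL66 was at 28 against 4 reads without reaching 5 RPKM, and AGL65 was lower at 13 against 27 reads (ratio 0.478, 0.227 to 0.960). The sperm histone gene MGH3 rose with 24 reads against 6 (3.97, 1.58 to 11.9), while the gamete fusion gene HAP2 had 8 and 6 and the generative cell regulator DUO1 had 8 and 2, both with intervals that held 1.

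The 12 highest values came mostly from loci outside the lists. Among loci of at least 10 RPKM whose interval left out 1, the highest value was that of AT3G28820, a gene of the DUF1216 family on chromosome 3 (10827647 to 10829396), with 231 reads at stage B and 5 at stage A (log2 value 4.46, read ratio 45.9, interval 19.4 to 143). The amino acid transporter gene AT1G71680 had 379 and 12 reads (31.4, 17.8 to 61.3). AGP11, an arabinogalactan protein gene of pollen, had 823 reads at stage B and 51 at stage A (16, 12.1 to 21.7). GLOX1, a glyoxal oxidase-related gene, had 288 and 11, the pectin methylesterase inhibitor family gene AT2G31425 122 and 4, the self-incompatibility S1 family gene AT2G04115 96 and 4, the esterase gene AT5G42170 91 and 2, the Ole e 1 family gene AT4G18596 84 and 3, and the pyrophosphorylase gene AtPPa3 265 and 15. RALFL20, which encodes a RALF-like peptide, and FLA14, a fasciclin-like arabinogalactan protein gene, had no read at stage A. Their 18 and 49 reads at stage B put the lower bounds of their ratios at 4.37 and 12.7. All 12, VGDH1 among them, had more reads still at stage C, for instance 688 for AT3G28820 and 3047 for AGP11.

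The genes that supply sugar to the anther rose with the pollen genes in part. Of 9, 8 were measured, 4 rose and 0 fell (median 1.01), where 4.31% of all measured loci rose. The hexose transporter genes STP6 (229 reads at stage B, 42 at stage A), STP9 (478, 115) and STP11 (46, 7) had ratios of 5.42 (3.89 to 7.72), 4.13 (3.36 to 5.11) and 6.53 (2.93 to 17.1). The sucrose carrier gene SUC1 had 1356 and 576 (2.34, 2.12 to 2.58). STP2, which is known to act while callose is broken down, was not called, with 192 reads at stage B and 219 at stage A (0.871, 0.714 to 1.06). The hexose carriers known from later pollen and the one known from the tetrad phase therefore stood apart beyond counting error.

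Tapetal regulators were lower at stage B. Of 12 listed transcription factors 10 were measured, 2 fell and 0 rose, where 0.82% of all measured loci fell, 5 had intervals below 1, and the median was -0.49. MS1, a PHD-finger factor of late tapetum and exine formation, fell to 28 reads at stage B, against 69 at stage A (ratio 0.403, 0.25 to 0.634), and MYB80 fell to 8, against 24 (0.331, 0.129 to 0.762). Both calls ended with a pseudocount of 3 RPKM or a higher RPKM of at least 10, which left 0 of the list, while the rule on the read ratio called 4. DYT1, which is at the head of the tapetal cascade, had 1 read at stage B and 11 at stage A (0.0903, 0.00210 to 0.622), with a mean RPKM too low to be measured. AMS, which activates the exine genes, had 563 and 951 reads (0.588, 0.529 to 0.654), and its partners BHLH010 and BHLH091 had 186 and 299 (0.618, 0.512 to 0.745) and 77 and 122 (0.627, 0.465 to 0.841). TDF1, which acts between DYT1 and AMS, had 36 and 47 (0.761, 0.479 to 1.2). TEK, an exine factor downstream of AMS, had 33 and 30 (1.09, 0.646 to 1.86). TDF1 and TEK thus gave no direction beyond counting error.

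The exine genes lay in a narrow band below 0. Of 12, 10 were measured, 0 rose or fell by the call, 9 had intervals below 1 and 0 above it, where 14.1% of all measured loci lay below, and their values lay between -0.93 and -0.23 with a median of -0.66. The reads of the list together were 0.635 times those of stage A (0.612 to 0.660). ACOS5, a fatty acyl-CoA synthetase of sporopollenin synthesis, had 347 reads at stage B and 662 at stage A (ratio 0.521, 0.456 to 0.594). The hydroxylase genes CYP703A2 (318, 574) and CYP704B1 (340, 616), the reductase gene MS2 (590, 1057) and the polyketide synthase genes PKSA (576, 828) and PKSB (588, 898) had ratios of 0.548 to 0.691. ABCG26, which exports the precursors, had 206 and 341 (0.600, 0.502 to 0.716). NEF1, which is known for its effect on the primexine, was nearest to 1 at 740 and 863 (0.852, 0.771 to 0.941), and DEX1 had no read in any library. The phenolamide enzymes of the tapetum followed with 3 of 4 intervals below 1: the methyltransferase gene TSM1 had 778 reads at stage B and 1291 at stage A (0.599, 0.547 to 0.655), and the spermidine transferase gene SHT 541 and 745 (0.722, 0.645 to 0.807).

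Secreted tapetal proteins and callose genes split. Of 8 secreted protein genes, 0 were called, 6 had intervals below 1 and 2 above, where 14.1% of all measured loci lay below and 11.8% above. A9 had 539 reads at stage B and 823 at stage A (0.651, 0.583 to 0.726), and the lipid transfer family genes AT5G62080, AT5G52160 and AT3G52130 had ratios of 0.574, 0.526 and 0.567. On the other side stood the family member AT1G66850, with 1986 reads at stage B and 1373 at stage A (1.44, 1.34 to 1.54), and ATA20, with 625 and 514 (1.21, 1.07 to 1.36). Of 6 genes of the callose wall and tetrad separation 4 were measured, 0 rose and 1 fell, where 0.82% of all measured loci fell. Their intervals lay below 1 for 2 and above 1 for 1. A6, a glucanase-like gene tied to callose breakdown, had 1980 and 3642 (0.540, 0.511 to 0.571). QRT1, a pectin methylesterase that parts the tetrads, fell to 27 reads, against 67 (0.400, 0.246 to 0.635). CALS5, the callose synthase of the microspore wall, went the other way with 235 reads at stage B and 107 at stage A (2.18, 1.73 to 2.77, log2 value 0.97), and was called with a pseudocount of 0.5 RPKM and with TMM or DESeq2 scaling.

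Pollen coat genes were higher at stage B, with 7 of 12 measured intervals above 1 and 0 below, where 11.8% of all measured loci lay above, although only GRP17 was called (median 0.23, 17 listed), and 0 were with a pseudocount of 3 RPKM. The oleosin genes of the coat lie side by side on the reverse strand of chromosome 5, from GRP14 at 2377710 to GRP20 at 2391075 (TAIR10). GRP20 had 4197 reads at stage B and 2140 at stage A (1.95, 1.85 to 2.05), GRP17 had 424 and 202 (2.09, 1.76 to 2.48), GRP19 had 670 and 398 (1.67, 1.48 to 1.90) and GRP18 had 444 and 355 (1.24, 1.08 to 1.43). GRP14 and GRP16 within the same cluster had at most 10 reads. Of the coat lipases, EXL6 had 919 and 628 reads (1.45, 1.31 to 1.61) and EXL4 had 3151 and 2817 (1.11, 1.06 to 1.17). The wax synthesis genes CER1, CER3 and CER6 had intervals that held 1. Oleosins, lipases and wax genes of the coat thus differed in their ratios, with reads summed at 1.84 (1.76 to 1.92), 1.16 (1.11 to 1.21) and 0.981 (0.914 to 1.05) times those of stage A.

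**Figure D2:**
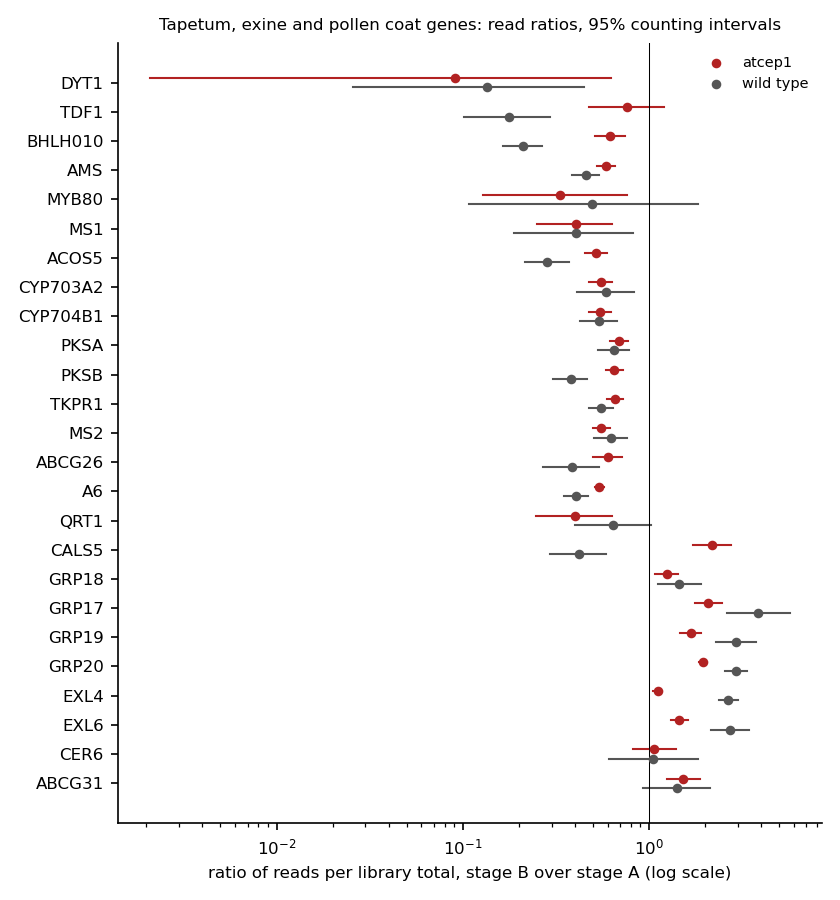
Ratio of reads per library total, stage B over stage A, on a log scale for genes of the tapetum (top), exine, callose wall and pollen coat (bottom); red, atcep1; grey, wild type; bars are 95% counting intervals of 1 library against 1 library. In atcep1 the exine enzymes lie between 0.521 (ACOS5) and 0.691 (PKSA), the coat oleosins lie above 1, and CALS5 lies on opposite sides of 1 in the genotypes.

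Proteases and nucleases of cell death were higher in part. Among the papain-like proteases, the family of CEP1, 11 of 17 were measured, 7 had intervals above 1 (11.8% over all measured loci) and 0 below, and 1 rose, a share near the 4.31% of all measured loci (median 0.47). That gene was AT3G19390, a granulin-repeat protease, with 349 reads at stage B and 82 at stage A (4.23, 3.32 to 5.45). The abundant members moved less: RD19A had 3659 and 2631 reads (1.38, 1.31 to 1.45), RD21A 2193 and 1553 (1.40, 1.31 to 1.5) and AT4G16190 2869 and 1868 (1.53, 1.44 to 1.62). SAG12, a senescence protease that was not measured, had 5 and 19 (0.261, 0.0763 to 0.724). Of 13 other cell death genes, 8 were measured, 4 rose (4.31% over all measured loci) and 0 fell (median 0.99). The 4 became 1 with a pseudocount of 3 RPKM and 2 with a higher RPKM of at least 10. The 4 were the bifunctional nuclease gene BFN1 (54 reads at stage B, 10 at stage A, ratio 5.37, 2.71 to 11.8), the ribonuclease gene RNS3 (36, 13, 2.75, 1.43 to 5.65), the saposin-like aspartyl protease gene AT4G04460 (79, 30, 2.62, 1.70 to 4.13) and AT4G18425, a DUF679 membrane protein gene (21, 7, 2.98, 1.22 to 8.30). The vacuolar processing enzyme gene GVPE had 635 and 525 (1.2, 1.07 to 1.35), and BVPE had 126 and 159.

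A few stamen maturation factors had large values, while all 9 measured secondary wall genes had values between 0.54 and 1.66. Of 21 genes of jasmonate synthesis and stamen maturation, 13 were measured, 3 rose (4.31% over all measured loci) and 0 fell (median 0.28). MYB21, a factor of filament elongation and anther opening, had 110 reads at stage B and 8 at stage A (13.7, 6.7 to 32.4), and MYB24, which acts with it, had 25 and 2 (12.4, 3.10 to 108). MYB108 had 30 and 2 reads (14.9, 3.78 to 129) but stayed under 5 RPKM. Upstream in the pathway the ratios were smaller: LOX2 had 5984 and 3538 (1.68, 1.61 to 1.75), AOC4 958 and 781 (1.22, 1.11 to 1.34) and AOS 107 and 115 (0.925, 0.704 to 1.21). AOC1 rose with 44 reads against 19, but its near-identical copies may share reads with it. Of 11 secondary wall genes 9 were measured, 8 had intervals above 1 (11.8% over all measured loci), 4 rose (4.31%) and 0 fell (median 0.86). With a pseudocount of 3 RPKM 2 of the 4 were called. The laccase gene LAC4 had 615 and 188 (3.25, 2.76 to 3.85), the chitinase-like gene CTL2 195 and 63 (3.08, 2.30 to 4.15), the cellulose synthase gene CESA4 255 and 111 (2.28, 1.82 to 2.88) and the master regulator NST1 63 and 27 (2.32, 1.46 to 3.79). CESA7 and CESA8, which form a complex with CESA4, had ratios of 1.94 and 1.96. NST3 and MYB26 had no read.

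**Figure D3:**
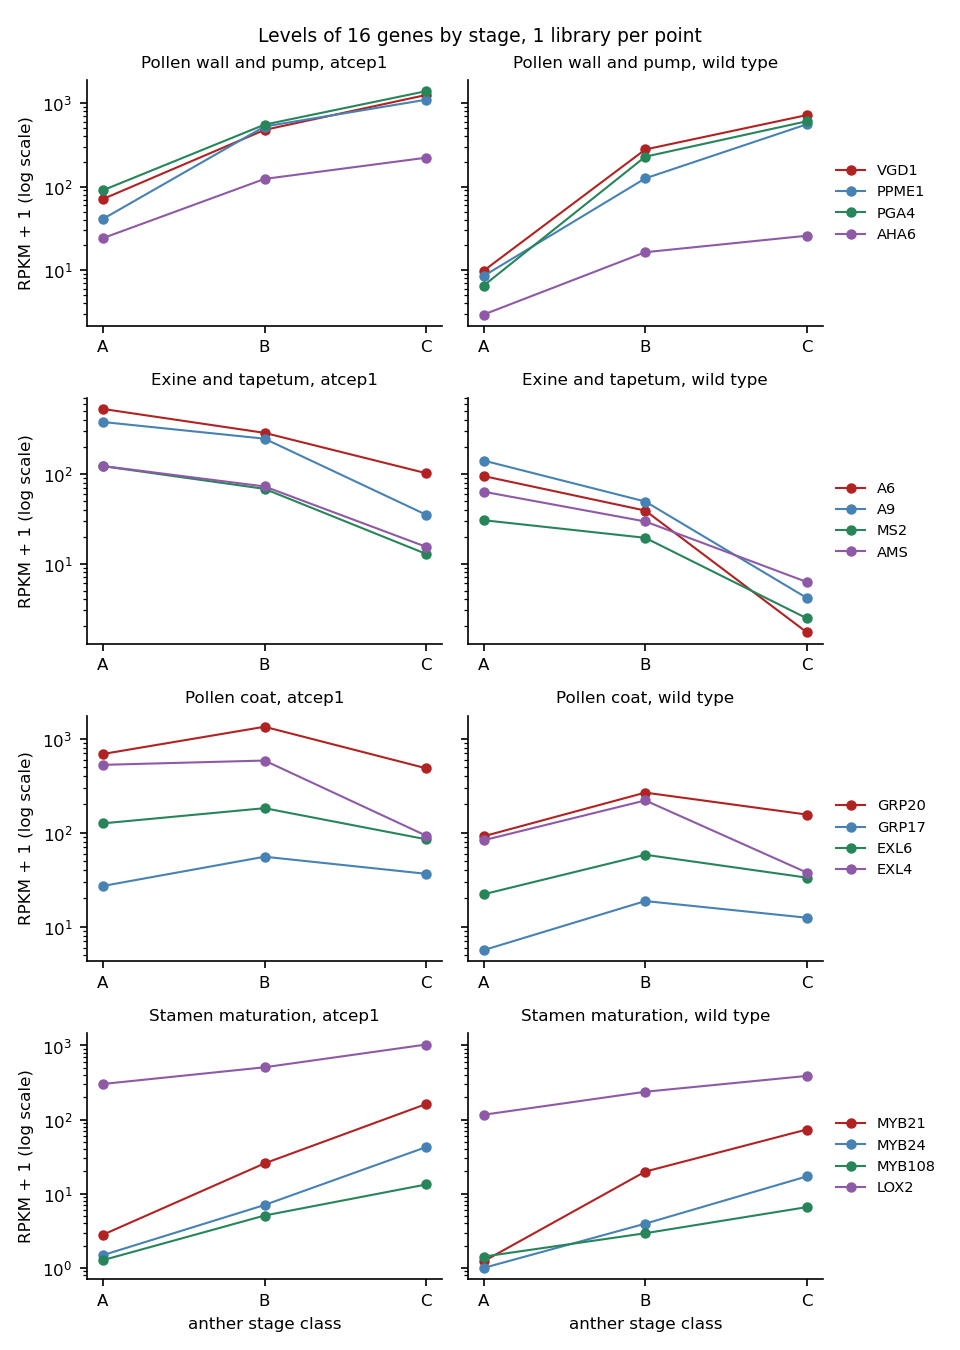
RPKM + 1 (log scale) at stages A, B and C for genes of 4 groups, atcep1 at left and wild type at right, 1 library per point. VGD1 climbs over the 3 stages in both genotypes, A6 and AMS descend, GRP20 peaks at stage B (1337 RPKM in atcep1, against 686 at stage A), and MYB21 climbs with 8, 110 and 761 reads at atcep1 stages A, B and C.

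Cell division genes were mostly lower at stage B, and 0 were called. Of 8 replication genes 6 were measured and 5 had intervals below 1 (median -0.50), where 14.1% of all measured loci did. MCM3 and MCM6, subunits of the replicative helicase whose promoters are printed above, had 263 and 422 reads (0.619, 0.529 to 0.724) and 178 and 288 (0.614, 0.507 to 0.743) at stages B and A, and PCNA1, the sliding clamp, had 367 and 493 (0.740, 0.644 to 0.848). Of 21 mitosis genes 19 were measured, 11 had intervals below 1 and 0 above (median -0.33). All 9 cyclins had a value below 0, among them CYCB1;2 with 307 and 412 reads (0.740, 0.637 to 0.860). The cytokinesis syntaxin gene KN had 277 and 313 (0.879, 0.745 to 1.04). Of 28 meiosis genes 14 were measured, 0 were called and 3 had intervals below 1, a share not far from the 14.1% of all measured loci (median -0.33). The lowest measured value was -1.19, in a gene under 5 RPKM at both stages. The rule on the read ratio, which has no RPKM limit, called 4 meiosis genes lower. DMC1, the meiotic recombinase, had 100 and 128 (0.776, 0.592 to 1.02), PS1, which orients the second spindle, had 139 and 216 (0.639, 0.513 to 0.795), and MS5, which is needed to end meiosis, had 7 and 23 (0.302, 0.110 to 0.728).

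Early anther fate genes were also lower, with 10 of 11 measured values below 0, 5 intervals below 1 (14.1% over all measured loci) and 0 above (13 listed, median -0.33). The receptor genes EMS1 (314 reads at stage B, 407 at stage A, ratio 0.767, 0.660 to 0.890) and BAM2 (617, 819, 0.749, 0.673 to 0.832) were lower, and SPL, which starts sporogenesis, had 95 and 120 (0.787, 0.595 to 1.04). Floral organ identity genes stayed near 1. AP1, AP3, PI and SEP2 had ratios of 1.11 to 1.21 with intervals above 1, and 0 of 10 were called. In the floral meristem list, LFY was lower at 18 and 40 reads (0.447, 0.241 to 0.798) and WUS, the stem cell regulator, was higher at 101 and 51 (1.97, 1.39 to 2.81). Of the carpel and ovule genes INO, an ovule integument gene, rose with 30 reads against 11 but was not called with a pseudocount of 3 RPKM or a higher RPKM of at least 10, while ANT had 521 and 698 (0.742, 0.661 to 0.832).

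Of the 12 lowest values, 5 belonged to loci listed as unknown proteins. AT2G26267 had 1 read at stage B and 9 at stage A (0.110, 0.00252 to 0.797), and AT3G53470 had 6 and 36 (0.166, 0.0570 to 0.397). The others were AT3G55570 (12, 39), AT1G49000 (16, 50) and AT1G50732 (8, 23). The protein kinase gene AT5G60090 had 19 and 70 (0.270, 0.153 to 0.453), the zinc ion binding gene AT5G61110 7 and 26, the aspartyl protease family gene AT2G23945 19 and 62, the glycosyl hydrolase genes AT3G55780 26 and 76 and AT3G61810 20 and 59, and the oxidoreductase gene AT1G73050 25 and 71. PAN, a bZIP factor of floral organ number, had 27 and 77 (0.348, 0.216 to 0.546). None of these 12 had more than 77 reads at stage A. A6 (3642), MS2 (1057) and AMS (951) had far more, with smaller steps.

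Some evening genes of the clock rose. Of 8 day and evening genes 7 were measured, 3 rose and 0 fell, where 4.31% of all measured loci rose. ELF4, a subunit of the evening complex, had 67 reads at stage B and 7 at stage A (9.51, 4.37 to 24.6). FKF1, a blue light receptor of photoperiodic flowering, had 71 and 13 (5.43, 2.98 to 10.7), and CCR2, a glycine-rich RNA-binding protein gene, had 176 and 61 (2.87, 2.13 to 3.90). TOC1 (553, 412) and GI (826, 613) were higher with ratios of 1.33 and 1.34. The morning gene PRR7 was lower, at 877 and 1020 (0.854, 0.780 to 0.936), and CCA1, LHY and PRR9 had at most 17 reads. The labels give no time of day at harvest. Of 6 cold response targets 5 were measured, all with intervals above 1 (11.8% over all measured loci), and 2 rose: COR15B with 207 reads against 69 (2.98, 2.26 to 3.97) and KIN1 with 822 against 286 (2.86, 2.49 to 3.28). KIN1 has a close homologue that may share its reads. Their regulators CBF1, CBF2 and CBF3 had 2 to 19 reads at stage B and 3 to 15 at stage A, with intervals that held 1.

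Abundant classes moved little. Of 14 light harvesting genes 13 were measured, 5 had intervals below 1 and 2 above, whereas the 4 Rubisco small subunit genes all had intervals above 1, up to RBCS2B with 3154 reads at stage B and 1613 at stage A (1.94, 1.83 to 2.06). The copies within both families are similar enough to share reads. Of 46 measured histone loci 23 had intervals below 1 and 2 above (median -0.22), and of 230 cytosolic ribosomal protein loci 59 and 11 (median -0.09), where 14.1% of all measured loci lay below 1 and 11.8% above. Abundant loci have narrow intervals, and the ribosomal median lay close to the -0.05 of all measured loci. Of 8 measured heat shock genes 0 were called (12 listed, median 0.21). HSP70 had 2913 reads at stage B and 2359 at stage A (1.23, 1.16 to 1.3) and HSP17.4 had 38 and 18 (2.1, 1.17 to 3.90). Of 6 flavonoid genes 0 were called, and the chalcone synthase gene TT4 had 5639 and 6074 (0.923, 0.890 to 0.957). The most abundant transcripts of both libraries were those of TCTP, with 5116 RPKM at stage B and 4578 at stage A, of the cell wall protein gene AT2G20870 (4040 and 2978 RPKM), of LHCB1.3 (3260 and 3568 RPKM) and of LHB1B2 (2990 and 3175 RPKM).

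**Figure D4:**
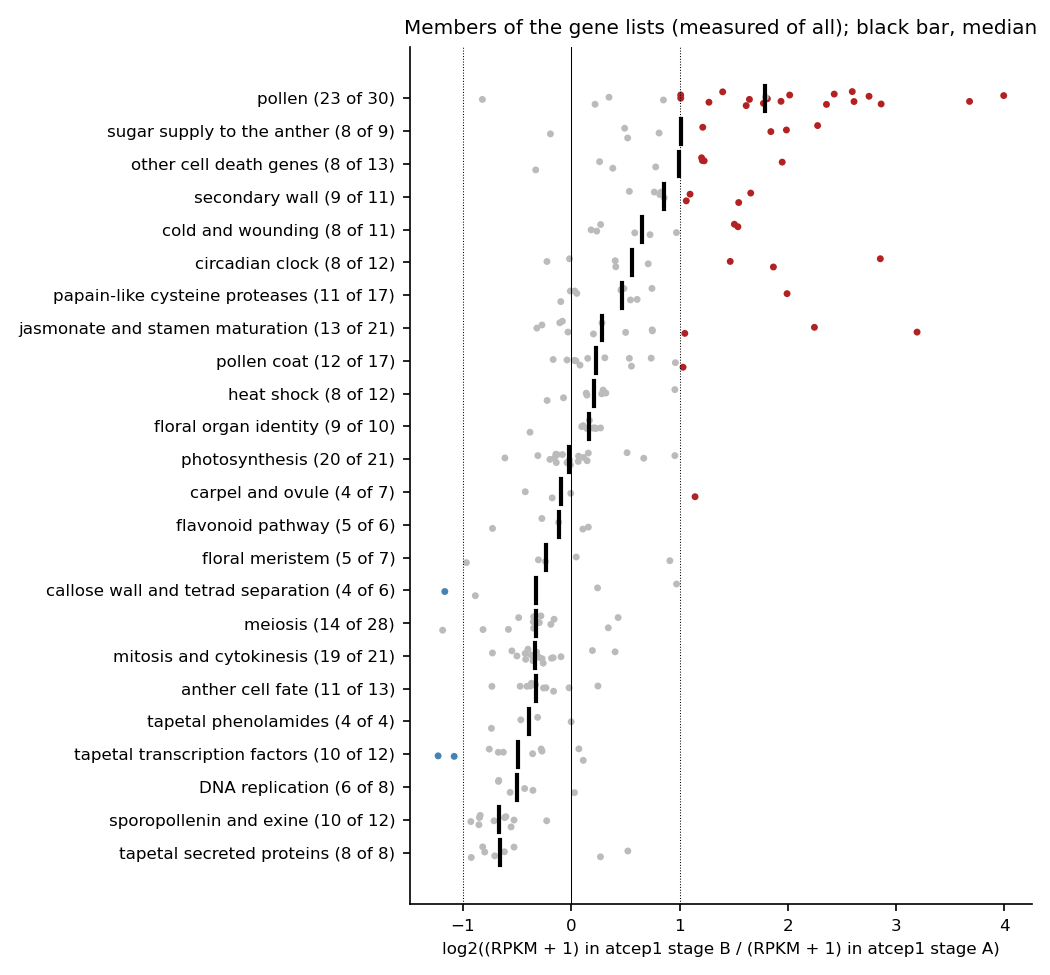
log2 value of the step, atcep1 stage B over stage A, for each measured member of the gene lists (rows; measured of all members in brackets); red, rose; blue, fell; grey, not called; black bars are medians and dotted lines mark the call limits. Pollen genes have a median of 1.79, and the exine list has a median of -0.66 with every measured member below 0.

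The same step in wild-type buds was laid beside that of atcep1 to see what it shares with the mutant. The 2 comparisons have no library in common, and each rests on 1 library a side, so their differences have counting intervals but no residual degrees of freedom and were not tested. In wild type 649 loci (4.41%) were higher and 231 (1.57%) lower at stage B than at stage A, with 13.3% of intervals above and 16% below 1. Of the loci that rose in atcep1, 331 rose in wild type too, 51.2% of those of atcep1 and 51.0% of those of wild type, and 589 (91.2%) had a value above 0 in wild type, against 44.3% of the measured loci. Of the loci that fell in atcep1, 29 fell in wild type, 23.58% of those of atcep1 and 12.6% of those of wild type, and 96 (78.0%) had a value below 0 in wild type, against 55.5% of the measured loci. Across the 14048 loci measured in both genotypes the values of the 2 steps correlated with a Pearson r of 0.74 and a Spearman rho of 0.45, where loci of 1 pair of libraries are no independent replicates.

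The libraries of the genotypes differed in their markers. Pollen markers summed to 1245 RPKM in atcep1 at stage B, against 496 in wild type, and to 171 at stage A, against 37.3. Tapetum markers summed to 814 RPKM in atcep1 at stage B, against 230 in wild type, and to 1189 at stage A, against 423. The part of this difference in the values below was not tested.

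The pollen list had a median of 1.79 in atcep1 and 1.91 in wild type over the same members. VGD1, PGA4 and VGDH1 had higher ratios in wild type, beside lower wild-type levels at stage A. VGD1 had 4400 reads at stage B and 642 at stage A in atcep1, against 2523 and 79 in wild type, a wild-type ratio of 31.4 (25.1 to 39.9). PGA4 had a wild-type ratio of 41.1 (29.7 to 58.7) and VGDH1 of 180 (91.0 to 417). For SUC1 the order was the reverse, with a ratio of 2.34 in atcep1 and 1.12 (0.930 to 1.35) in wild type. The hexose carrier gene STP11 had 46 reads at stage B and 7 at stage A in atcep1, against 138 and 0 in wild type. FLA14 and AT1G71680, which rose in atcep1, had at most 5 reads at stages B and A in wild type.

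Tapetal transcription factors were lower in both genotypes, with medians of -0.49 in atcep1 and -0.99 in wild type. TDF1 had 36 and 47 reads in atcep1 at stages B and A, against 18 and 100 in wild type, a ratio of ratios of 4.29 (approximate interval 2.21 to 8.34). For BHLH010 the ratio of ratios was 2.93 (2.17 to 3.95), for TEK 3.53 (1.53 to 8.17) and for AMS 1.29 (1.06 to 1.56), while for MS1 it was 0.990 (0.443 to 2.21). Secreted tapetal proteins had medians of -0.66 in atcep1 and -1.14 in wild type. The exine medians were -0.66 and -0.78, with ACOS5 at a ratio of ratios of 1.83 (1.36 to 2.46) and CYP704B1 at 1.02 (0.791 to 1.32). The pollen coat list lay at 0.23 in atcep1 and 0.66 in wild type. EXL4 had ratios of 1.11 in atcep1 and 2.67 (2.39 to 2.99) in wild type, and GRP20 of 1.95 and 2.93 (2.56 to 3.37). At stage A itself A9 had 823 reads in atcep1, against 297 in wild type, EXL4 had 2817, against 430, and GRP20 had 2140, against 276. TDF1 had 47, against 100, and BHLH010 had 299, against 392. These genes were thus on either side of wild type at stage A.

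The medians differed in sign for 4 of the 24 lists. They were 0.21 in atcep1 and -0.80 in wild type for heat shock, -0.39 and 0.06 for the phenolamide enzymes, -0.12 and 0.32 for the flavonoid pathway and -0.02 and 0.33 for photosynthesis. Of the 4 annotation classes, the chloroplast genome (-0.07 and 0.11) and the mitochondrial genome (-0.01 and 0.49) differed in sign too. Over the measured loci of each genotype the medians were -0.046 in atcep1 and -0.045 in wild type. The photosynthesis and mitochondrial medians lay above these in both genotypes, so their difference in sign rests on values close to 0 in atcep1. Other scalings were not tried on the medians. TSM1 had ratios of 0.599 in atcep1 and 1.00 (0.864 to 1.16) in wild type. Of the 20 measured photosynthesis genes 7 had intervals above 1 in atcep1 (11.8% over all measured loci) and 17 in wild type (13.3%). Below 1 lay 5 in atcep1 (14.1%) and 0 in wild type (16%). Many of these genes are abundant, so their intervals leave out 1 at small steps. Loci with both intervals leaving out 1 on opposite sides, and at least 0.5 from 0 in each genotype, numbered 5 that were higher in atcep1 and lower in wild type, and 2 the other way. The 5 were MEE26, PRA1.F1, CALS5, HSP17.4 and ATMES3. CALS5 had 235 reads at stage B and 107 at stage A in atcep1, against 49 and 115 in wild type, a ratio of ratios of 5.2 (3.47 to 7.80). The hydroxyproline-rich glycoprotein gene MEE26 had 138 and 37, against 71 and 114 (6.04, 3.78 to 9.65). The lipid transfer family gene AT4G22490 had 32 and 68, against 33 and 12 (0.173, 0.0789 to 0.378). WUS had 101 and 51 in atcep1, against 32 and 44 in wild type, where the interval held 1 (0.716, 0.440 to 1.16), so its step in wild type had no direction beyond counting error.

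**Figure D5:**
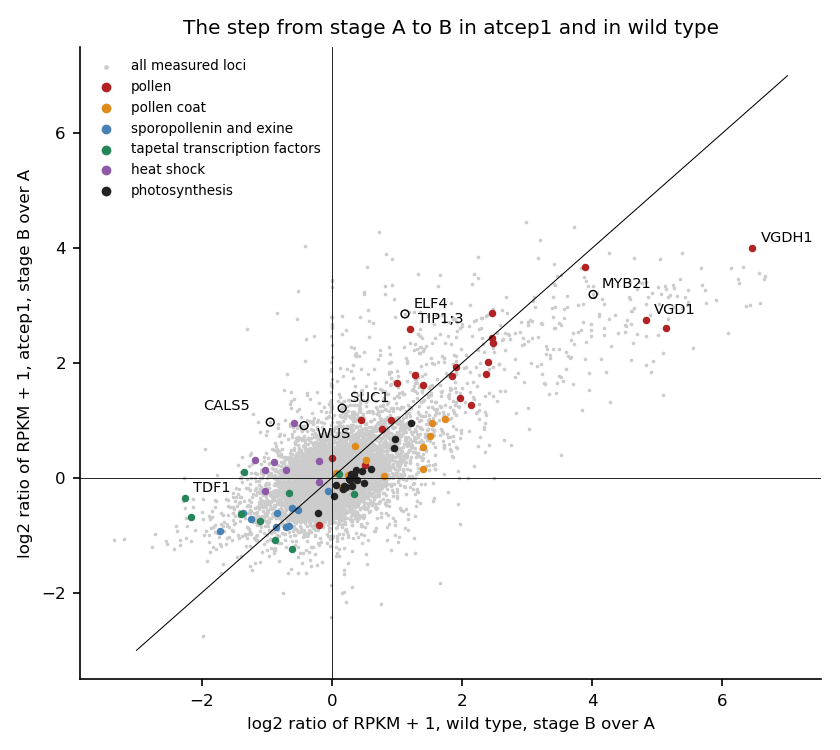
log2 value of the step from stage A to stage B in atcep1 (vertical) and in wild type (horizontal) for all loci measured in atcep1 (light grey) and for members of 6 lists (colours); the diagonal marks equal steps. Pollen genes lie high in both genotypes (medians 1.79 in atcep1 and 1.91 in wild type), the heat shock genes have a median of 0.21 in atcep1 and -0.80 in wild type, and CALS5 lies above 0 in atcep1 and below 0 in wild type.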

How the data were processed

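Oligo(dT)-selected RNA of whole flower buds was sequenced from 6 libraries, 1 for each of 2 genotypes and 3 stages, per the labels' protocols. The deposited files list, per the file headers, the unique read count of each transcript model, its coverage in percent and its RPKM, which the authors scaled to the total of counted reads. The build was TAIR10, per the submitters' processing notes, while no source used here names the aligner or the counter. No strand-specific kit is named, so a gene and its antisense partner cannot be told apart, and near-identical copies lose shared reads.

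Counts and RPKM of the models of a locus were summed, and a locus missing from a file was set to 0. The step was log2((RPKM + 1) in stage B / (RPKM + 1) in stage A), called at a 2-fold difference with a higher RPKM of at least 5. A floor of 3 reads corresponds to 0.721 RPKM at stage B and 0.725 at stage A of atcep1 for 1000 bases. With 1 library a side no test was made and no p-value given. Exact conditional binomial intervals at 95% and approximate intervals of the ratio of ratios cover counting error only. The procedure was run on simulated counts that held counting error alone. They had no variation between libraries, so the check says nothing about that error. Named loci were CEP1, the 12 highest and the 12 lowest values at 10 RPKM or more with an interval that left out 1, up to 6 loci in each direction with opposite steps of at least 0.5 in the genotypes, the 6 loci highest in RPKM in each library, and members of 24 lists (316 loci) and 4 annotation classes. The comparison and the lists were chosen with earlier results of these data known. Promoters are 300 bases before the RefSeq gene start (TAIR10.1), where 24302 of 24309 nuclear loci overlapped the coordinates in the files. Alternatives were other pseudocounts, filters, scalings by edgeR 4.0.16 TMM factors and DESeq2 1.42.0 size factors, organelle loci left out of the total, and a rule on the read ratio. Python 3.11.15, numpy 2.4.6, pandas 2.3.3, scipy 1.17.1, matplotlib 3.10.9 and R 4.3.3 were used.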

Additional observations from a re-analysis of the deposited data

Results flagged for a closer look

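In 14 named loci the step from stage A to stage B lay on one side of 0 in atcep1 and on the other in wild type, with both counting intervals leaving out a ratio of 1. Each genotype has 1 library per stage, so the difference between the genotypes was not tested. The values given are differences of the log2 values, atcep1 minus wild type. The step was higher in atcep1 for MEE26 (2.5), PRA1.F1 (2.11), CALS5 (1.92), HSP17.4 (1.53), the methyl esterase gene ATMES3 (1.17), HSP70 (0.488) and the petal and stamen identity gene PI (0.462). It was lower in atcep1 for AT4G22490 (-2.31), AT3G27050 (-1.32) and 5 light harvesting genes, LHCB1.1 (-0.458), LHCB3 (-0.375), LHCB5 (-0.369), LHB1B2 (-0.262) and LHCB1.3 (-0.188). The intervals were scaled to library totals alone, while the TMM factors of atcep1 were 1.029 at stage A and 0.992 at stage B. In atcep1 the light harvesting steps were small, from -0.197 (LHCB3) to -0.086 (LHB1B2). Their intervals were not recomputed with TMM factors.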

How the results depend on the processing

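The counts of called loci depended on the filter more than on the scaling. Without a filter on low values 1134 loci were higher and 357 lower, with a higher RPKM of at least 10 there were 399 and 52, and with a 2-fold read ratio whose interval left out 1 there were 1065 and 330, of which 610 and 97 were shared with the 646 and 123 reported. A pseudocount of 3 RPKM left 43 lower loci, and 505 higher. A pseudocount of 0.5 gave 688 and 153, TMM factors gave 686 and 99, DESeq2 size factors 678 and 101, and a total without organelle loci 646 and 125. Of the counts within the gene lists 395 stayed within 1.5 times and 53 moved further. A count of 0 that stayed at 0 was taken as within 1.5 times, and most list counts were 0 as reported. The 395 therefore says little about the counts that were not 0. Of the log2 values of named loci 182 moved by less than their counting error and 13 further. All 13 came from the scalings, 7 with TMM and 6 with DESeq2 factors. Among called loci 0 changed sign, whereas AT5G20290, at -0.02 as reported and not called, was at 0.03 with TMM and with DESeq2 factors. No paired analysis was possible because the step in atcep1 alone rests on 1 library at each stage, and for the same reason no library could be left out. A step common to both genotypes was not fitted. At 4.16 M reads at stage B and 4.14 M at stage A, genes under the floor of 3 reads, CEP1 nearly among them, gave no usable ratio.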
